A study of Homo sapiens with 8 samples.

Results

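The RNA of 10 actin and contractile genes was followed in 2 Ewing sarcoma cell lines. They are the actins ACTB, ACTG1 and ACTA2, the tropomyosins TPM1 and TPM2, the calponin CNN2, the transgelins TAGLN and TAGLN2, the myosin light chain MYL9 and vinculin, VCL. They were taken by gene symbol from the 60332 genes of the deposited expression table, with the entry of the highest mean where a symbol had several, and the rule used no comparison between groups. Of the 10, 9 reached a mean of at least 1 FPKM (mapped fragments per kilobase of transcript, scaled to library size) and were tested among 15175 genes in all, and MYL9 did not. RD-ES and SK-N-MC cells each gave 2 control and 2 eKD2 libraries, which makes 8 libraries in 4 groups. In eKD2 cells the enhancer of LOXHD1, a GGAA repeat, was targeted by dCas9-KRAB, a non-cutting Cas9 fused to a repressor domain. The labels give the controls as infected with the same lentivirus without a guide, whereas the paper calls them parental. The eKD2 cells were puromycin-selected pools of infected cells and not clones, so knockdown is an average over the cells of a pool. Their dCas9-KRAB was driven by the ubiquitin C promoter. Whether the controls were infected and selected in the same way depends on which account of them is right. The study describes the libraries as biological replicates, but the labels name no separate cultures, so the p-values measure the spread between these libraries only.

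Actin filaments are built from actin monomers. Beta-actin (ACTB) and gamma-actin (ACTG1) are made by nearly all cells, and alpha-smooth muscle actin (ACTA2) by contractile cells. Tropomyosins lie along the filament, calponins and transgelins bind and bundle it, the myosin regulatory light chain switches the motor that pulls on it, and vinculin ties it to adhesion sites. Many of these genes are transcribed by serum response factor (SRF), which binds the CArG box and works with MRTF cofactors. Free actin monomers hold these cofactors out of the nucleus, which links the state of actin to the transcription of actin genes.

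LOXHD1, the gene under the targeted enhancer, had 21.4 and 21.2 FPKM in the RD-ES controls against 1.03 and 1.02 FPKM with eKD2. The SK-N-MC libraries gave 159 and 169 FPKM as controls against 11.0 and 12.0 FPKM with eKD2. Steps between low values gave a rough depth of 7.50 to 30.1 M reads (M, mega) per library, the lowest for RD-ES eKD2 replicate 1. All 8 markers of Ewing sarcoma on a list, CD99 and NKX2-2 among them, had a mean of at least 1 FPKM. Of 9 smooth muscle markers 3 did so, and MYH11 and MYOCD were listed at 0 in the controls of both lines. The 3 were SMTN, with control means of 9.38 FPKM in RD-ES and 10.6 FPKM in SK-N-MC, ACTG2 (0.521 and 11.2) and CNN1 (1.82 and 3.09). The summed level of those 9 was 10.0 to 14.9 FPKM in RD-ES control and 23.4 to 27.6 FPKM in SK-N-MC control. In such bulk samples fewer cells of a type and less RNA per cell cannot be told apart.

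The CArG box is shown first because it is the sequence through which SRF reads many genes of this kind. It was searched as CC, 6 bases of A or T, and GG, on both strands, from 250 bases before to 50 bases after the annotated starts in RefSeq (GRCh38.p14), and the hits were placed on GRCh37 by exact match. Of the members, 7 had a window there, with 11 windows in all. The box was present in 2 windows, those of ACTG1 and CNN2, and in 454 of 35116 windows of all genes (1.29%). In other SRF-MRTF target genes of the cytoskeleton it was found in 10 of 52 windows (19.2%). The ACTG1 box lies 94 bases before the start, in chr17:79479900-79479929 on the minus strand, and the CNN2 box 89 bases before the start, in chr19:1026508-1026537 on the plus strand. Both are printed with the bases on either side, and capitals mark the box.
ACTG1: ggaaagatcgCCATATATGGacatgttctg
CNN2: cgcctccaggCCTTATAAGGacatttgcgc
The windows of ACTA2, TAGLN2, TPM1, TPM2 and VCL did not hold this exact pattern. That says nothing about boxes elsewhere in the genes, or about boxes in these windows that depart from the pattern by a base. ACTB, TAGLN and MYL9 had no window and were not searched.

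ACTB and ACTG1 were by far the most abundant members in every library. ACTB (ENSG00000075624, GRCh37 chromosome 7, 5566040 to 5603533, minus strand) ranked 26 of 15175 genes in RD-ES control and 41 in SK-N-MC control. The RD-ES controls had 2111 and 2272 FPKM, against 1660 and 1946 FPKM with eKD2. Both SK-N-MC controls had 1689 FPKM, against 1372 and 1519 FPKM with eKD2. The eKD2 libraries were thus below the controls in both lines, with no overlap. ACTG1 (ENSG00000184009, chromosome 17, 79476439 to 79490873, minus strand) had 1795 and 2105 FPKM in the RD-ES controls against 1435 and 1724 FPKM with eKD2, again without overlap. In SK-N-MC its control values of 1341 and 1439 FPKM overlapped with the eKD2 values of 1202 and 1426 FPKM. ACTB exceeded ACTG1 in each of the 8 libraries, by 1.07 to 1.26 times. ACTB made up 51.4% to 55.5% of the summed FPKM of 7 actin genes and ACTG1 44.1% to 48.2%. The coding sequences of both are very similar, and how the authors' counting divided shared reads was not tested. Of their processed pseudogenes, 10 named ACTBP reached at most 0.334 FPKM and 20 named ACTG1P at most 5.87 FPKM.

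Each of these genes also contains a short annotated miRNA gene of 84 bases on its own strand. The one within ACTB, AC006483.1 (ENSG00000263900), had 23730 and 37677 FPKM in the RD-ES controls against 11035 and 31529 FPKM with eKD2. Among SK-N-MC libraries, the controls had 18158 and 26877 FPKM, and 10515 and 21191 FPKM were found with eKD2. Its FPKM was thus above that of ACTB in all 8 libraries, and its replicates lay farther apart than those of ACTB. At 84 bases both short genes are shorter than the fragment of 200 bases assumed here for read numbers. FPKM is scaled by length, so their values cannot be read as levels beside those of the actins. The one within ACTG1, AC139149.1 (ENSG00000266077), was at 3913 to 9360 FPKM in RD-ES and practically 0 in SK-N-MC. The part of both short genes in the values of ACTB and ACTG1 was not tested.

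ACTA2, the smooth muscle actin (ENSG00000107796, chromosome 10, 90694831 to 90751096, minus strand), differed most between the lines. The RD-ES libraries gave 17.5 and 22.7 FPKM as controls against 18.6 and 26.97 FPKM with eKD2. The SK-N-MC libraries gave 1.74 and 1.18 FPKM as controls against 2.33 and 2.42 FPKM with eKD2. The eKD2 libraries overlapped with the controls in RD-ES and lay above them in SK-N-MC, where the gene rested on about 18 to 69.6 reads per library. It gave at most 0.730% of the actin FPKM. Enteric smooth muscle actin, ACTG2, had the opposite distribution, with 0.228 and 0.814 FPKM in RD-ES control and 11.4 and 10.9 FPKM in SK-N-MC control. Of the striated muscle actins, ACTA1 and ACTC1 did not exceed 0.173 FPKM, and ACTBL2 was listed at 0 in all libraries.

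ACTA2 shares its locus with FAS, a death receptor gene on the opposite strand whose exons overlap with it, and with STAMBPL1. The library kit does not keep the strand, so reads of the overlap cannot be told apart. The control level of FAS was 17.5 ± 0.779 FPKM for RD-ES and 1.81 ± 0.230 FPKM for SK-N-MC (SD, n = 2 each). STAMBPL1 was at 7.81 ± 0.686 and 2.10 ± 0.518 FPKM. All 3 genes of the locus were therefore lower in SK-N-MC, and the part of the neighbours in the ACTA2 value was not tested.

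**Figure D1:**
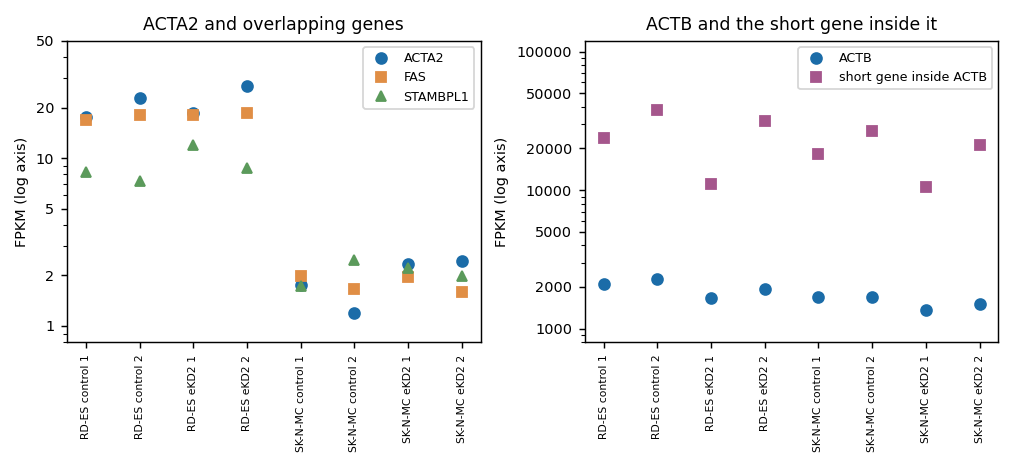
FPKM in each of the 8 libraries on a log axis: ACTA2 with FAS and STAMBPL1 (left) and ACTB with the 84-base gene inside it (right). All points of the ACTA2 locus are lower in the 4 SK-N-MC libraries. The FPKM of the short gene lies above that of ACTB in every library, which is not a comparison of levels.

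Of the tropomyosins, TPM2 (ENSG00000198467, chromosome 9, 35681989 to 35690053, minus strand) was the most abundant member after the cytoplasmic actins in RD-ES. RD-ES cells had 183 and 204 FPKM as controls and 171 and 184 FPKM with eKD2, and SK-N-MC cells 22.5 and 22.9 FPKM as controls and 21.1 and 22.7 FPKM with eKD2. The lines were thus far apart, and within each line eKD2 and control libraries overlapped. TPM1 (ENSG00000140416, chromosome 15, 63334819 to 63364114, plus strand) had the opposite order. RD-ES cells had 22.3 and 17.0 FPKM as controls and 14.3 and 18.0 FPKM with eKD2, and SK-N-MC cells 27.6 and 28.1 FPKM as controls and 27.9 and 29.2 FPKM with eKD2. Both genes are spliced into muscle and non-muscle isoforms, which the gene level does not separate.

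Set against their paralogs, TPM2 made up 22.3% to 25.8% of the summed tropomyosin FPKM in the RD-ES libraries and 2.92% to 3.19% in SK-N-MC. TPM4 made up 26.8% to 31.5% and 69.4% to 71.6%, and TPM3 43.5% to 45.3% and 21.5% to 23.6%. The sum of the 4 genes was 723 to 822 FPKM in RD-ES and 708 to 783 FPKM in SK-N-MC, so the ranges of the sum overlapped while the shares did not. In the control comparison TPM4 was higher in SK-N-MC by 1.15 on the log2 scale (limma adjusted p = 2.4e-04) and TPM3 lower, at -1.01 (limma adjusted p = 9.2e-05).

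**Figure D2:**
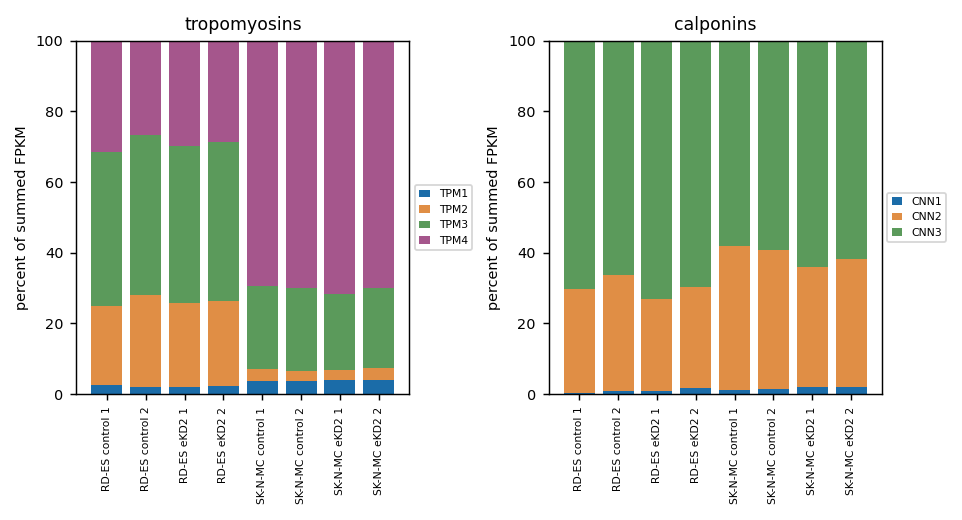
Percent of the summed FPKM of 4 tropomyosin genes (left) and 3 calponin genes (right) in each of the 8 libraries. TPM2 and TPM3 fill most of the RD-ES bars that TPM4 fills in SK-N-MC, and the CNN2 share is lower in both SK-N-MC eKD2 bars than in the SK-N-MC control bars.

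CNN2, a calponin of non-muscle cells (ENSG00000064666, chromosome 19, 1026585 to 1039067, plus strand), was at similar levels in both lines and lower in all eKD2 libraries. The RD-ES libraries gave 85.6 and 95.7 FPKM as controls against 71.9 and 73.8 FPKM with eKD2. Among SK-N-MC libraries, the controls had 97.1 and 97.2 FPKM, and 65.4 and 73.3 FPKM were found with eKD2. Neither line had any overlap, and at least about 1052 reads stood behind each value. Its share of the summed calponin FPKM was 40.8% and 39.5% in SK-N-MC control against 34.1% and 36.1% in eKD2. In RD-ES it was 29.3% and 32.8% in control and 26.0% and 28.6% in eKD2. CNN3, the most abundant calponin gene here, was at 180 to 206 FPKM in RD-ES and 123 to 146 FPKM in SK-N-MC.

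TAGLN2, a transgelin of many tissues (ENSG00000158710, chromosome 1, 159887897 to 159895297, minus strand), made up 95.7% to 98.3% of the transgelin FPKM. The RD-ES libraries gave 96.5 and 97.2 FPKM as controls against 92.4 and 88.2 FPKM with eKD2. The SK-N-MC libraries gave 58.6 and 58.5 FPKM as controls against 62.6 and 66.9 FPKM with eKD2. The eKD2 libraries thus lay below the controls in RD-ES and above them in SK-N-MC. TAGLN, or SM22-alpha, an early gene of smooth muscle (ENSG00000149591, chromosome 11, 117070086 to 117078180, plus strand), was near the limit of 1 FPKM. RD-ES cells had 1.44 and 1.69 FPKM as controls and 2.28 and 2.35 FPKM with eKD2, and SK-N-MC cells 2.40 and 2.64 FPKM as controls and 1.41 and 2.57 FPKM with eKD2. The eKD2 libraries were above the controls in RD-ES and overlapped with them in SK-N-MC, where replicate 1 alone was low. The TAGLN gene overlaps with PCSK7 on the opposite strand, which was at 20.6 FPKM in the mean of RD-ES control and 11.1 FPKM in SK-N-MC control, and its part in the TAGLN value was not tested.

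Vinculin, VCL (ENSG00000035403, chromosome 10, 75754951 to 75881121, plus strand), had 22.2 and 24.9 FPKM in the RD-ES controls against 23.9 and 23.6 FPKM with eKD2. Among SK-N-MC libraries, the controls had 12.6 and 13.4 FPKM, and 13.8 and 10.1 FPKM were found with eKD2. Control and eKD2 libraries overlapped in both lines. Its exons also overlap with those of AP3M1 on the opposite strand, with a control mean of 25.2 FPKM for RD-ES and 21.9 FPKM for SK-N-MC, and the part of AP3M1 in the VCL value was not tested. MYL9, the regulatory light chain of smooth muscle myosin (ENSG00000101335, chromosome 20, 35169900 to 35179850, plus strand), was listed at 0 in 7 libraries and at 0.0514 FPKM in SK-N-MC eKD2 replicate 1. The non-muscle light chain genes MYL12A and MYL12B were at 124 to 260 FPKM and 129 to 198 FPKM.

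**Figure D3:**
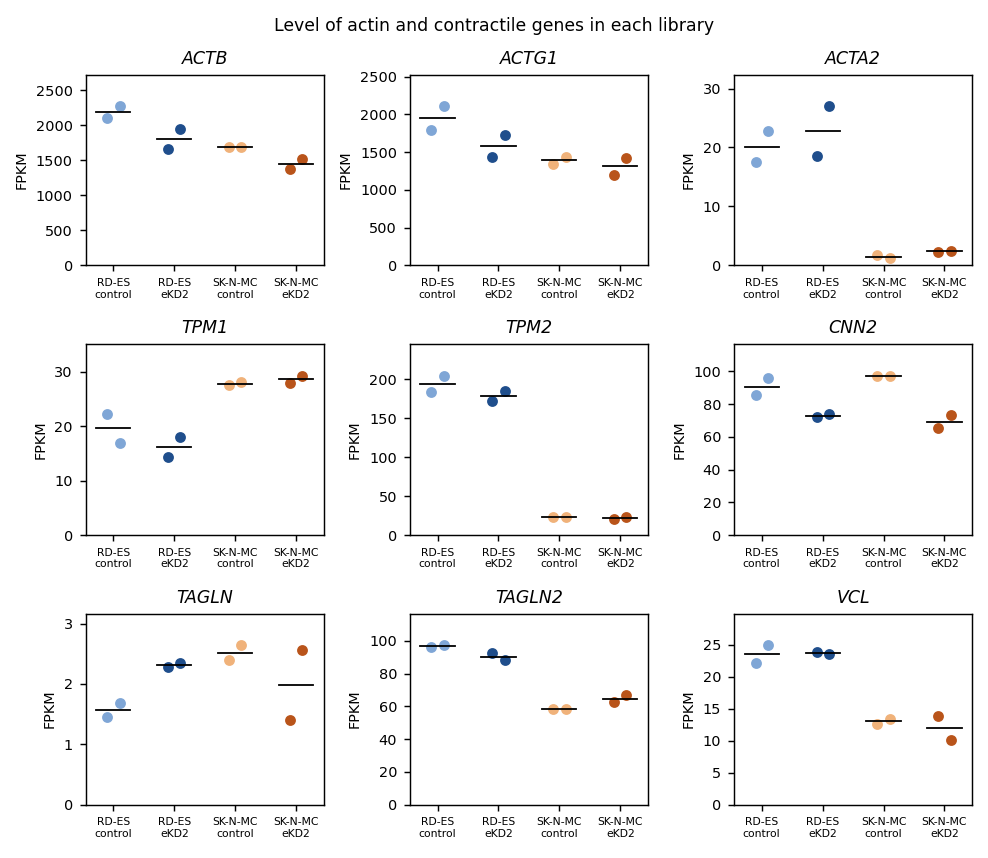
FPKM of the 9 tested members in each library, on linear axes that start at 0. Points are libraries and bars are means of 2. ACTA2 and TPM2 separate the lines, and the eKD2 points of ACTB and CNN2 lie below the control points in both lines.

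In RD-ES control the members thus ranked from ACTB (2191 ± 114 FPKM, SD, n = 2) and ACTG1 (1950 ± 220) through TPM2 (194 ± 14.7), TAGLN2 (96.8 ± 0.531) and CNN2 (90.6 ± 7.14) to VCL, ACTA2, TPM1 and TAGLN. The libraries of VCL, ACTA2 and TPM1 overlapped. In SK-N-MC control the order after the actins was CNN2 (97.1 ± 0.10 FPKM), TAGLN2 (58.5 ± 0.0921), TPM1 (27.8 ± 0.408), TPM2 (22.7 ± 0.230), VCL (13.0 ± 0.533), TAGLN (2.52 ± 0.168) and ACTA2 (1.46 ± 0.393). None of these neighbours overlapped, with 2 libraries each.

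The first comparison asked how the control cells of the lines differ, as SK-N-MC control minus RD-ES control on the scale of log2(FPKM + 1), with limma and Benjamini-Hochberg adjustment over all 15175 genes. Differences on this scale understate those of genes near 1 FPKM. Of the 9 members, 6 were lower in SK-N-MC, 1 was higher and 2 did not pass an adjusted p of 0.05. Of all genes 57.8% passed, 26.4% as lower and 31.4% as higher. The member median was -0.48, and that of all genes 0.065. ACTA2 had the largest difference of the members, -3.10 (SE 0.22, limma adjusted p = 1.1e-04), with a 13.8-fold lower mean FPKM. TPM2 was lower by nearly as much, at -3.04 (SE 0.082, limma adjusted p = 5.7e-06), with an 8.54-fold lower mean. Differences of that size or more were found in 2.71% and 2.93% of genes.

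The other called members differed less. VCL was at -0.81 (SE 0.15, limma adjusted p = 0.0042) and TAGLN2 at -0.72 (SE 0.063, limma adjusted p = 2.5e-04). ACTG1 was at -0.48 (limma adjusted p = 0.020), ACTB at -0.37 (limma adjusted p = 0.013) and TPM1 at 0.50 (limma adjusted p = 0.035). The calls of ACTG1, ACTB and TPM1 were lost without RD-ES control replicate 2 and without either SK-N-MC control library, when 4 members passed. TPM1 was the least firm of the 7, since its call was lost under 10 of the 16 alternatives, with median scaling (0.35, limma adjusted p = 0.11), quantile normalization and either SK-N-MC eKD2 library left out (limma adjusted p = 0.069) among them. TAGLN was at 0.46 with a 95% interval of -0.06 to 0.98 (limma adjusted p = 0.11), and it passed only with the controls fitted alone (limma adjusted p = 0.032) or with either SK-N-MC eKD2 library left out (limma adjusted p = 0.024 and 0.025). CNN2 was at 0.10 with an interval of -0.11 to 0.31 (limma adjusted p = 0.34), or -0.046 when libraries were scaled to the same median. The differences of ACTA2 and TPM2 thus stood out by size, while those of the cytoplasmic actins were small. The lines also differed in the summed level of 6 fibroblast markers, at 132 to 151 FPKM in RD-ES control and 262 to 264 FPKM in SK-N-MC control, but the markers did not move one way. DCN, a matrix proteoglycan, had a mean of 0.995 FPKM in the RD-ES controls against 136 FPKM in the SK-N-MC controls, while PDPN, a membrane glycoprotein, was at 79.8 against 0.015 FPKM. The 8 skeletal muscle markers summed to 23.2 to 28.3 FPKM against 76.5 to 85.9 FPKM, nearly all of it from TNNT1, a troponin, at 24.4 against 79.9 FPKM. The part of either list in the member values was not tested.

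The second comparison asked how the members differed with knockdown of the LOXHD1 enhancer. LOXHD1 itself was at -3.46 in RD-ES (limma adjusted p = 1.1e-04) and at -3.73 in SK-N-MC (limma adjusted p = 3.7e-05). With RD-ES fitted alone even its call there was lost (limma adjusted p = 0.059). None of the 9 members passed an adjusted p of 0.05 in RD-ES, where 0.343% of all genes did, or in SK-N-MC, where 0.323% did. None passed in the mean of both lines either, where 0.448% did. At an unadjusted p under 0.05, 2 members were lower in each of these 3 limma comparisons, as were 3.79%, 7.29% and 5.41% of all genes. No member was higher, as were 8.49%, 5.71% and 7.36% of all genes. The lower ones were ACTB and CNN2 throughout. In RD-ES alone both eKD2 libraries were below both controls for 4 members (15.1% of all genes) and above for 1 (24.2%), and in SK-N-MC below for 2 (25.1%) and above for 2 (22.2%). The same 2 members, ACTB and CNN2, had both eKD2 libraries below both controls in each line, as did 4.03% of all genes, and no member was above in each line (5.64% of all genes). The median over the members was -0.12 in RD-ES against -0.085 in SK-N-MC, beside 0.031 and -0.0049 over all genes. The SK-N-MC median rested on single libraries, at 0.021 without SK-N-MC eKD2 replicate 1 and -0.042 without SK-N-MC control replicate 2.

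CNN2 had the lowest p of the members. Its mean FPKM differed by -19.6% in RD-ES, a log2 difference of -0.31 with a 95% interval of -0.52 to -0.10 (limma adjusted p = 0.25). In SK-N-MC the mean differed by -28.6%, a log2 difference of -0.48 with an interval of -0.69 to -0.28 (limma adjusted p = 0.13). Over both lines the difference was -0.40 (SE 0.060, limma adjusted p = 0.082, unadjusted p = 5.6e-04 in the same fit). When each library was scaled to the same median the adjusted p of limma was 0.036, and over the other alternatives it ranged up to 0.27. ACTB was at -0.29 in RD-ES (interval -0.51 to -0.065, limma adjusted p = 0.31) and at -0.23 in SK-N-MC (interval -0.45 to -0.0063, limma adjusted p = 0.37). The mean of both lines was -0.26 (limma adjusted p = 0.22).

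ACTG1 was at -0.31 in RD-ES with an interval of -0.62 to 0.014, and at -0.085 in SK-N-MC with an interval of -0.40 to 0.23. TPM1 was at -0.26 in RD-ES (interval -0.64 to 0.12) and at 0.037 in SK-N-MC (-0.34 to 0.42). The intervals of the actins and TPM1 therefore left room for a decrease of up to 0.64 on the log2 scale in RD-ES. TPM2 was at -0.12 (-0.32 to 0.079) and -0.052 (-0.25 to 0.15), the narrowest intervals around 0 beside TAGLN2. TAGLN2 was at -0.10 (-0.25 to 0.055) in RD-ES against 0.14 (-0.012 to 0.30) in SK-N-MC. VCL was at 0.013 (-0.34 to 0.37, or -0.057 with median scaling) in RD-ES against -0.13 (-0.48 to 0.23) in SK-N-MC. ACTA2 and TAGLN, the smooth muscle genes, had the widest intervals. ACTA2 was at 0.16 (-0.37 to 0.69) in RD-ES against 0.46 (-0.068 to 0.99) in SK-N-MC. TAGLN was at 0.37 (-0.15 to 0.89) in RD-ES against -0.26 (-0.78 to 0.26) in SK-N-MC. The limma adjusted p of these 7 genes was at least 0.42 in each line.

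**Figure D4:**
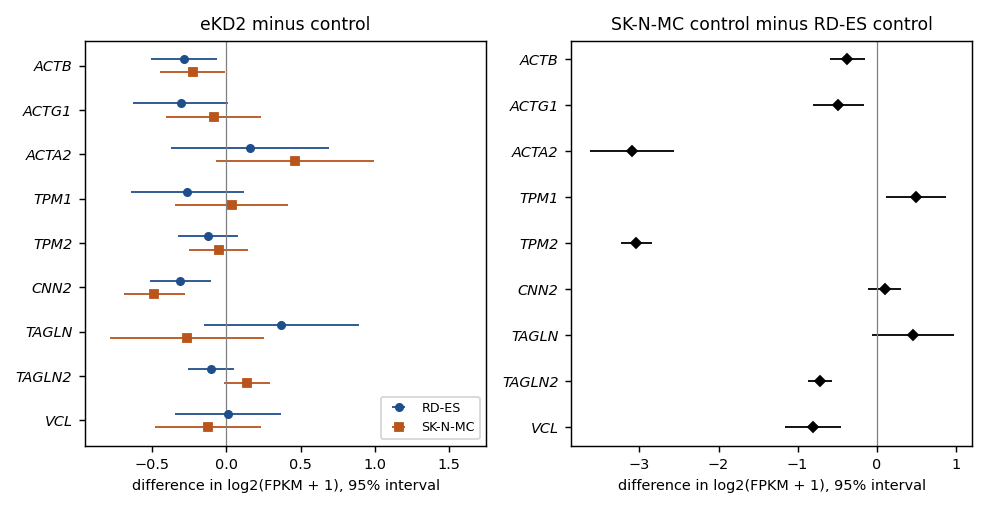
Difference in log2(FPKM + 1) with its 95% interval from limma for the 9 tested members: eKD2 minus control in each line (left) and SK-N-MC control minus RD-ES control (right). On the left the intervals of ACTB and CNN2 lie below 0 in both lines, before adjustment, and on the right ACTA2 and TPM2 lie near -3.

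The third comparison subtracted the RD-ES change from the SK-N-MC change and asked whether the lines responded differently. No member passed, and 0.244% of all genes did. TAGLN2 had the lowest p, with a difference of 0.24 (interval 0.024 to 0.46, limma adjusted p = 0.33). TAGLN was at -0.63 (interval -1.37 to 0.10) and CNN2 at -0.17 (interval -0.47 to 0.12). At an unadjusted p under 0.05 limma gave 1 member, TAGLN2, as higher (4.38% of all genes) and 0 as lower (9.16%). No change of a member was thus shown to differ between the lines, while the interval of TAGLN ran beyond a log2 difference of 1.

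SRF and its cofactors were compared alongside, since many genes of this kind are known targets of SRF. Their action on the members was not tested. RD-ES cells had 11.6 and 12.4 FPKM of SRF as controls and 9.22 and 11.5 FPKM with eKD2, and SK-N-MC cells 12.9 and 12.9 FPKM as controls and 10.7 and 12.3 FPKM with eKD2. The eKD2 libraries were below the controls in both lines, as they were for 4.03% of all genes. The log2 differences of -0.20 (interval -0.51 to 0.10) and -0.16 (-0.47 to 0.14) did not pass (limma adjusted p = 0.56 and 0.65). MKL2, which encodes the MRTF-B cofactor, had 9.76 and 11.4 FPKM in the RD-ES controls against 18.3 and 13.5 FPKM with eKD2, a difference of 0.54 (limma adjusted p = 0.28). The SK-N-MC libraries gave 19.3 and 21.7 FPKM as controls against 19.8 and 21.7 FPKM with eKD2. MKL1, which encodes MRTF-A, was at 7.64 to 12.8 FPKM over the 8 libraries, and MYOCD, the smooth muscle cofactor, was listed at 0 throughout. The TCF cofactor genes ELK1, ELK3 and ELK4 were at 16.3 to 28.9, 7.91 to 18.2 and 8.65 to 17.5 FPKM. None of the 6 tested genes was called by limma in either line, and MKL2 alone had an unadjusted p under 0.05, in RD-ES.

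Between the control groups, MKL2 was higher in SK-N-MC by 0.89 (limma adjusted p = 0.0040), and ELK1 (-0.64, limma adjusted p = 0.0024) and ELK4 (-0.61, limma adjusted p = 0.010) were lower. ELK3 was at -0.53 (limma adjusted p = 0.056) and passed under 7 of the 16 alternatives, and MKL1 was at -0.37 (limma adjusted p = 0.12) and passed under 3, which were median scaling, quantile normalization and the replicate block. SRF itself was at 0.097 with an interval of -0.21 to 0.40 (limma adjusted p = 0.54), or -0.040 with median scaling. The call of ELK4 was lost without RD-ES control replicate 1 or SK-N-MC control replicate 2.

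Of 20 further cytoskeletal targets of SRF and MRTF, 18 were tested and none was called with eKD2. In the mean of both lines 6 had an unadjusted limma p under 0.05, all lower, where 5.41% of all genes were lower and 7.36% higher. Not every value was below 0. LPP, a focal adhesion protein, was at 0.52 in RD-ES (limma adjusted p = 0.33), and FHL2, a LIM domain cofactor, at 0.19 there against -0.63 in SK-N-MC (limma adjusted p = 0.14). In each line the eKD2 libraries were below the controls for 3 of the 18, as they were for 4.03% of all genes. They were FLNA, which crosslinks filaments, CSRP1, a LIM protein, and MYLK, the kinase of the myosin light chain. FLNA had 538 and 598 FPKM in the RD-ES controls against 413 and 482 FPKM with eKD2, and 392 and 404 FPKM in the SK-N-MC controls against 280 and 341 FPKM with eKD2. Its log2 differences were -0.35 and -0.36 (limma adjusted p = 0.34 and 0.31). CSRP1 was at -0.28 and -0.39 (limma adjusted p = 0.28 and 0.17), and MYLK at -0.49 in both lines (limma adjusted p = 0.49 and 0.48). The RD-ES value of MYLK moved to -0.88 without RD-ES control replicate 1 and -0.11 without replicate 2. ACTN1, an actinin that also crosslinks filaments, was at -0.24 in RD-ES (limma adjusted p = 0.29) against -0.10 in SK-N-MC. The list median in the mean of both lines was -0.12, beside 0.017 for all genes and -0.087 for the members.

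Of the 10 tested immediate early genes of the SRF-TCF branch, 0 were called in limma. FOSL1 (-0.45 and -0.37) and DUSP1 (-0.17 and -0.22) were below the controls in each line, as were 4.03% of all genes. In the mean of both lines 2 of the 10 had an unadjusted p under 0.05, both lower, beside the 5.41% of all genes given above. Others had positive values in RD-ES. IER3, a stress response gene, was at 0.33 there (limma adjusted p = 0.31) against -0.48 for SK-N-MC (limma adjusted p = 0.19). That difference of -0.81 did not pass (limma adjusted p = 0.16). EGR1, a zinc finger transcription factor, was at 0.41 in RD-ES (limma adjusted p = 0.40). Among 17 genes of actin turnover 0 were called either, and 4 had an unadjusted limma p under 0.05 in that mean, 3 of them higher (7.36% of all genes were). GSN, which severs filaments, was at 0.59 in RD-ES against 0.067 in SK-N-MC. In each line the eKD2 libraries were above the controls for GSN (5.64% of all genes) and below them for TMSB10 (4.03%). The mean FPKM of TMSB10 differed by -11.9% in RD-ES and by -10.8% in SK-N-MC. TMSB4X, which binds actin monomers, was at 0.018 (-0.054 with median scaling) in RD-ES against 0.64 in SK-N-MC, with a limma adjusted p of 0.11 for the latter.

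**Figure D5:**
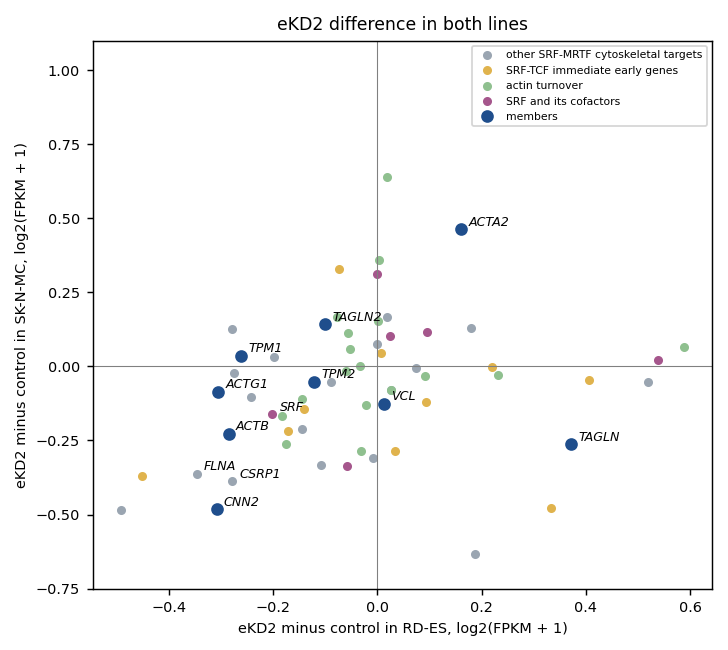
Log2 difference of eKD2 minus control in RD-ES (horizontal) and SK-N-MC (vertical) for the members and 4 lists of SRF and actin genes, 1 point per gene. ACTB and CNN2 lie at the lower left with FLNA and CSRP1, and no point passed the adjusted p in either line.

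The paralog list gave the same picture with eKD2, with 0 of 8 tested genes called by limma and 1, TPM3, at an unadjusted p under 0.05 in the mean of both lines. TPM3 (-0.11 and -0.18) was below the controls in each line, as were 4.03% of all genes, and CNN3 was at -0.064 and -0.19. Between the lines, many genes of these lists differed, as did 57.8% of all genes. The lowest p were those of CALD1 (-4.57) and PDLIM5 (1.21) among the cytoskeletal targets and TMSB4X (-3.72) and COTL1 (-2.14) in actin turnover. IER3 (-1.80) and MCL1 (-0.98) led the immediate early genes. The limma adjusted p of these genes was at most 2.9e-04. ACTG2, the enteric actin described above, was higher in SK-N-MC by 3.03 (limma adjusted p = 2.1e-04). CALD1 encodes caldesmon, an actin and tropomyosin binding protein, and was at 36.3 and 38.9 FPKM in RD-ES control against 0.777 and 0.487 FPKM in SK-N-MC control.

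Across the 8 libraries, which share 2 lines and so are not 8 independent points, the members varied in groups. As a description, ACTB and ACTG1 correlated with Pearson r = 0.96 on the log2 scale, and ACTA2, TPM2, TAGLN2 and VCL with one another at 0.91 to 0.99. These 4 are lower in SK-N-MC, as are ACTB and ACTG1, which correlated with them at 0.71 to 0.79. TPM1 went against the 4, at -0.85 to -0.91. CNN2 followed none of the 4, at -0.13 to 0.014, but was at 0.55 with ACTB and 0.41 with ACTG1. Of the genes outside the list, TAF5L (0.992), FLNA (0.991) and CHERP (0.988) were the most like ACTB. For TPM2 they were KIRREL1, RARRES2 and RNF144A-AS1, all above 0.999 and all high in RD-ES and low in SK-N-MC. AAAS, CPE and RFLNA were the most like ACTA2 (0.997 each), and ID3 (0.958), TBC1D22A (0.938) and RC3H1 (0.927) the most like TAGLN. Genes on the Y chromosome and the gene XIST were left out of this search.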

How the data were processed

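RNA-seq was done on 8 libraries of 2 cell lines, with 2 control and 2 eKD2 libraries each. The authors aligned single-end reads to GRCh37 with STAR and made FPKM with cufflinks and cuffnorm, and the deposited table gives FPKM for 60332 genes. The study tested read counts with DESeq2, which were not analysed here. Poly(A) libraries were made without strand information. Differences were computed as log2(FPKM + 1), with a pseudocount of 1 FPKM, in 15175 genes whose mean over the libraries reached 1 FPKM, with limma (version 3.58.1, lmFit and eBayes with trend, R 4.3.3) over 4 groups in 1 fit. P-values were adjusted by Benjamini-Hochberg over all tested genes. With 2 libraries per group the smallest two-sided p of an exact permutation test is 0.333, and none was run. The members and gene lists were chosen with earlier results of these data known. The text gives all members, the other actins, and SRF with its cofactors. A list of signalling genes is not reported here. From the lists of paralogs, cytoskeletal targets, immediate early genes and actin turnover it gives genes with low p. LPP, FHL2, EGR1, TMSB10 and, for eKD2, IER3 were chosen after their values were seen. Marker lists are given by counts and sums, with the values of the 3 smooth muscle markers that reached a mean of 1 FPKM. DCN, PDPN and TNNT1 were also chosen afterwards. It also gives the 3 genes most like ACTB, ACTA2, TAGLN and TPM2.

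Depth was estimated from steps between low FPKM values, of which 79.5% to 83.3% lay within 0.1 of a whole read after scaling. Reads per gene are rough, since they also rest on the length of 1 transcript of GENCODE release 44. FPKM values carry no counts, so no interval for counting error is given. The fit was run on simulated data before use, with changes larger than those of the members with eKD2. That run does not tell how often changes of the members' size would be found. Alternatives were another pseudocount, no filter and a filter of 5 FPKM, median scaling, quantile normalization, no trend, each line fitted alone, the control libraries fitted alone, a replicate block and leaving out each library. For the share of an actin gene, all entries of a symbol were summed instead.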

Additional observations from a re-analysis of the deposited data

How the results depend on the processing

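No member passed the threshold with eKD2 under any alternative, except CNN2 in the mean of both lines with median scaling (1 member called, not 0). Between the control groups 7 members were called, but 4 without a filter on low values and 4 to 7 without 1 library at a time, the lost calls being ACTB, ACTG1 and TPM1. The limma adjusted p of TPM1 was 0.091 with the replicate block, 0.11 with median scaling, 0.064 with quantile normalization and 0.072 with the controls alone. TAGLN was gained in 3 of these fits, so a count of 7 does not always cover the same members. ACTA2, TPM2, TAGLN2 and VCL kept their call under every alternative run. The number of genes called was 52 in RD-ES, and 79 without a filter, 1 with RD-ES fitted alone and 27 to 71 without 1 library. In SK-N-MC it was 49, and 118, 13 and 12 to 76. For the difference of the eKD2 changes between the lines it was 37, and 66 without a filter, 24 with a minimum of 5 FPKM and 54 to 81 without 1 library. With the replicate block within each line, 11, 5, 10 and 7 genes were called in RD-ES, in SK-N-MC, in their mean (68 without it) and for their difference. Over all tested genes, libraries of 1 number deviated together little (r = 0.056 for RD-ES, 0.027 for SK-N-MC). Such a value over all genes cannot tell whether they share a culture or batch, which the labels do not give. Median scaling moved the share of higher genes at an unadjusted p under 0.05 from 69.1% to 41.2% in RD-ES, from 57.6% to 41.8% in the mean and from 32.4% to 56.3% for the difference, and quantile normalization to 53.7%, 48.7% and 43.4%.

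Small log2 differences changed sign. With median scaling CNN2 between the controls was -0.046, SRF there -0.040, TAGLN2 in the mean -0.0090, and in RD-ES VCL -0.057, ELK1 -0.046 and TMSB4X -0.054. With quantile normalization the SK-N-MC eKD2 change minus the RD-ES eKD2 change was -0.067 for ACTB. TAGLN in the mean was then -0.023, SRF between the controls -0.050, and in RD-ES VCL -0.030 and ELK1 -0.0089. Without 1 library, the RD-ES differences ran from -0.095 to 0.42 for ACTA2, -0.068 to 0.094 for VCL, -0.34 to 0.22 for ACTG2, -0.15 to 0.020 for CNN3, -0.038 to 0.086 for ELK1, -0.29 to 0.18 for ELK3, -0.050 to 0.24 for ELK4, -0.14 to 0.14 for MKL1 and -0.054 to 0.090 for TMSB4X. In SK-N-MC they ran from -0.21 to 0.038 for ACTG1, -0.55 to 0.021 for TAGLN, -0.33 to 0.083 for VCL, -0.00080 to 0.21 for ELK1 and -0.059 to 0.10 for MKL2. In the mean they ran from -0.088 to 0.20 for TAGLN, -0.0027 to 0.045 for TAGLN2 and -0.16 to 0.048 for VCL. The SK-N-MC eKD2 change minus the RD-ES eKD2 change ran from -0.056 to 0.17 for ACTB, -0.0067 to 0.15 for TPM2 and -0.35 to 0.070 for VCL. The cause of these changes was not tested. Where 1 library was left out, the lone library of its group was assumed to vary like the other groups. Depth limits TAGLN and, in SK-N-MC, ACTA2 most.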
